A study of Mus musculus with 16 samples.

Results

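CD11b+ cells of the spleen were compared with CD11b+ cells of the bone marrow on all 16 arrays of the series, 8 spleen arrays and 8 marrow arrays, taken by the tissue in their titles. The cells came from mice of 4 genotypes, WT, STAT4-/-, STAT6-/- and HDC-/-, fed either a normal diet (control) or, for 3 months to model atherosclerosis, a high-fat diet (HFD), and all mice were labelled male. STAT4 and STAT6 are transcription factors that act downstream of cytokine receptors, and HDC is the enzyme that makes histamine. Each combination of tissue, genotype and diet was read on 1 array from RNA pooled over 5 mice, so no combination was repeated. A spleen and a marrow array of the same genotype and diet formed a pair, which gave 8 pairs. The sources used here give neither the age and strain of the mice, nor the way CD11b+ cells were isolated, nor which exons the knockouts lack.

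CD11b, encoded by Itgam, is the alpha chain of the integrin Mac-1 and is carried by neutrophils, eosinophils, monocytes and macrophages, and also by some dendritic cells and natural killer cells. Bone marrow is where granulocytes and monocytes are made from dividing precursors. Neutrophil precursors fill their primary granules first, then their secondary granules, and stop dividing before they mature and leave for the blood. The spleen holds red pulp macrophages that take up old red cells and recycle iron, dendritic cells that present antigen, blood monocytes and neutrophils, and large numbers of B and T lymphocytes.

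A level below is the log2 signal of a gene's probe over the 75th percentile of its array, and a difference is spleen minus marrow on that log2 scale, given with its standard error (SE) over the 8 pairs. The arrays had 60.4% to 85.6% of spots well above background, lowest on the slide of STAT6-/- and HDC-/- marrow (60.4% to 69.1%), and no spot was saturated. The spleen STAT4-/- HFD array had a mean r of 0.970 with marrow arrays, against 0.947 with its own tissue, and the marrow HDC-/- control array one of 0.954 with spleen arrays, against 0.947 with its own tissue. These 2 pairs are called the outlying pairs, and counts are given without them where they move by over 1.5 times. Hdc was at 0.83 to 1.77 on the 4 HDC-/- arrays, against 3.91 to 5.64 on 11 others where its probe was not marked as an outlier, whereas Stat4 was not low on the 4 STAT4-/- arrays (0.27 to 3.35, against -1.03 to 1.15 on the 12 others). Y-linked signal was low on both arrays of the STAT4-/- control and HDC-/- control pairs, and without these 2 pairs 3306 features were called higher and 4362 lower. Arrays were assigned to slides by the scan date in their file headers, so a slide here means a shared scan date. By this, each of the 4 slides held 1 tissue and each tissue lay on 2 slides. A fit with slide as a random block, and genotype and diet terms in place of pair, called 9143 features, against 9407 in the main fit. The correlation within slides was 0.003 in that fit, so the block had little weight. The 2 fits also differ by the pair term. No slide held both tissues, so neither fit can tell a tissue difference from a difference between slides.

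Of 28783 features, 4125 (14.3%) were higher in spleen and 5282 (18.4%) were lower at an adjusted p under 0.05 by limma, 9407 (32.7%) in all. Without the 2 outlying pairs the counts were 4443 higher and 6901 lower. The list counts below are to be read beside the shares of all features, 14.3% higher and 18.4% lower. Among the calls, 2663 (9.25% of features) were at least 2-fold higher and 2327 (8.08%) at least 2-fold lower. The median difference over all features was -0.06, and it was -0.20 over the 18008 features above background on all 16 arrays, of which 2825 (15.7%) were higher and 4788 (26.6%) lower. All 8 spleen arrays lay above all 8 marrow arrays for 473 features (1.64%), and all 8 marrow arrays above all 8 spleen arrays for 269 (0.935%). Differences below were spread unevenly over the pairs: the STAT4-/- HFD pair had 3.22% of features at least 2-fold higher and 4.22% at least 2-fold lower in spleen, against 11.3% and 45.3% in the WT control pair and 30.3% and 8.44% in the HDC-/- control pair. These shares include dim features. In the WT control pair the median difference was -0.82 over all features and -0.46 over those above background on all 16 arrays. In the HDC-/- control pair these medians were 0.37 and 0.06.

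**Figure D1:**
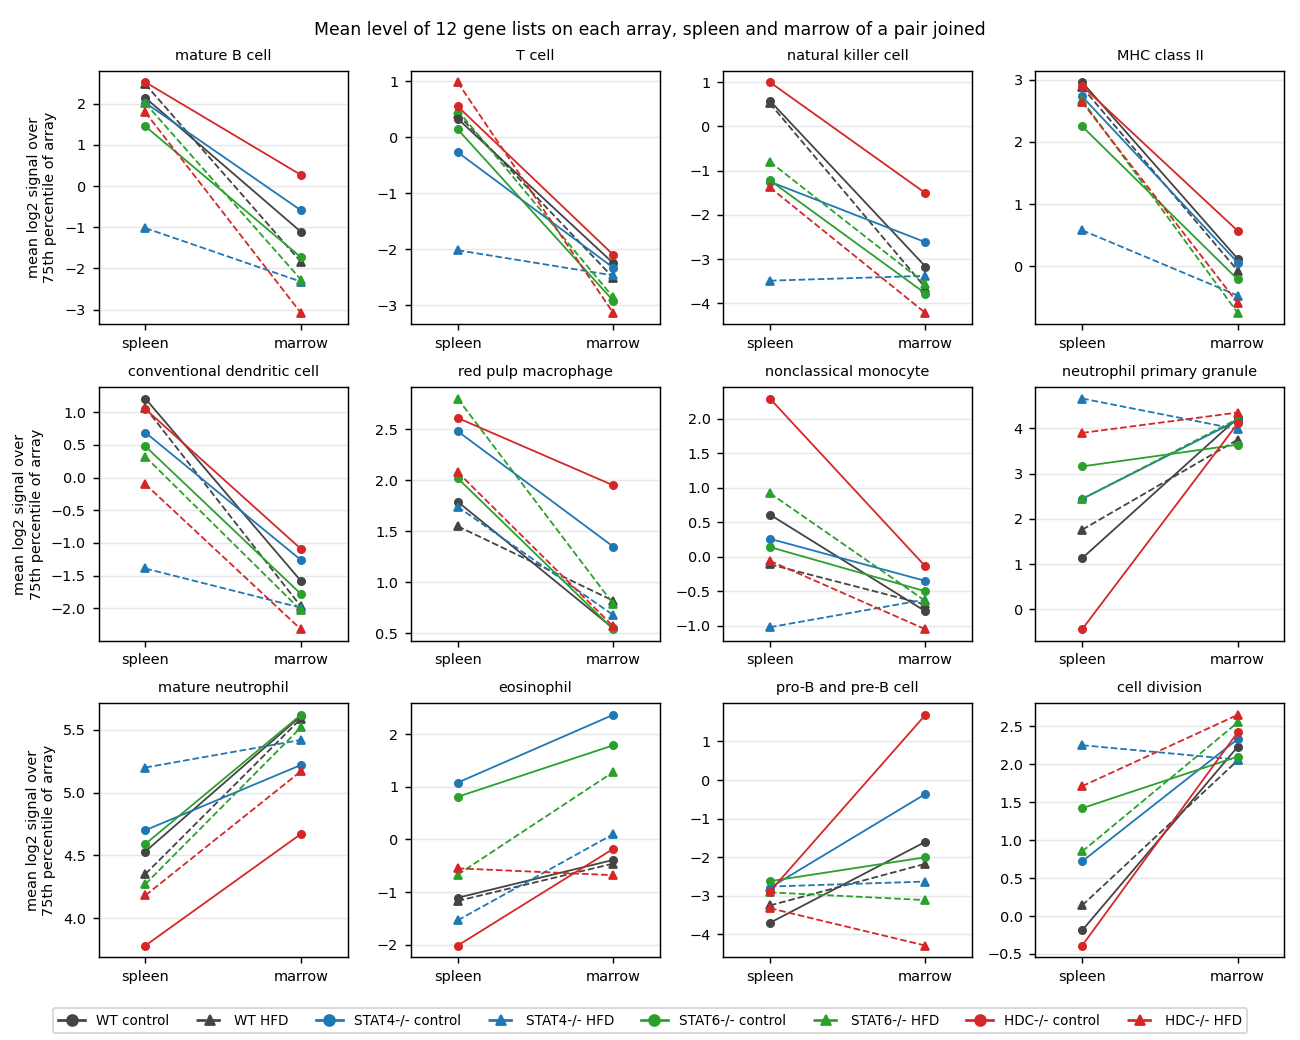
Mean level of 12 gene lists on each array (log2 signal over the array's 75th percentile), with spleen on the left of each panel, marrow on the right, and a line joining the 2 arrays of each of the 8 pairs (circles and solid lines control diet, triangles and dashed lines HFD). Mature B cell, T cell, natural killer cell, antigen presentation and macrophage lists lie higher in spleen in nearly every pair. Granule, mature neutrophil and cell division lists lie lower, and the pro-B and pre-B list is higher in 2 of 8 pairs. The STAT4-/- HFD pair is the flattest line in most panels.

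The gene of the selecting antigen was itself lower in spleen. Itgam had a level of 3.00, 4.19 and 5.89 (lowest, median and highest) on the spleen arrays, against 4.60, 5.75 and 5.90 on the marrow arrays. The difference was -1.30 (SE 0.30, adjusted p 0.0097), with the spleen array lower in 7 of 8 pairs, and the spleen STAT4-/- HFD array was the exception. Its partner chain gene Itgb2, shared by the leukocyte integrins, differed by -0.91 (SE 0.21, adjusted p 0.00951). Other integrin chains went the opposite way. Itgad, which encodes CD11d, the alpha chain known from splenic red pulp macrophages, had a level of 0.06, 1.40 and 2.71 in spleen, against -3.89, -2.67 and 0.66 in marrow, a difference of 3.75 (SE 0.37, adjusted p 0.000634). Only the marrow HDC-/- control array reached into the range of the spleen arrays. Itgax, the CD11c chain of dendritic cells, differed by 2.35 (SE 0.38), Itgb7 by 1.32, Itgb1 by 1.00 and Itga4 by 0.68. In the list of 12 integrin genes 5 were higher, 3 lower (Itgam, Itgb2 and Itgb3) and 4 were not called, with a median of 0.08. All 12 were above background on 16 arrays, and of all such features 15.7% were higher and 26.6% lower.

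Genes that mark the making of neutrophils were lower in spleen. Of 8 primary granule genes 6 were called lower and 0 higher, with a median difference of -1.77. Mpo, the myeloperoxidase gene, had a level of 0.96, 4.42 and 6.13 in spleen, against 5.38, 5.93 and 6.25 in marrow. The marrow arrays were close together, whereas the spleen arrays were far apart, and the STAT4-/- HFD and HDC-/- HFD spleen arrays lay in the marrow range. The Mpo difference was -1.85 (SE 0.53, adjusted p 0.024), and the neutrophil elastase gene Elane differed by -1.69 (SE 0.49, adjusted p 0.0249). Prss57, a serine protease gene of these granules, differed by -2.13 (SE 0.60) and the precursor marker Ms4a3 by -1.96 (SE 0.57). Prtn3 (-1.59, adjusted p 0.0655) and Cst7 (-0.69) were not called. Averaged over the list, the level was -0.44 on the spleen HDC-/- control array and 4.66 on the spleen STAT4-/- HFD array, and 3.64 to 4.35 on all marrow arrays. The Mpo and Prss57 calls were lost without the WT HFD or the STAT6-/- HFD pair (adjusted p 0.0516 to 0.0565), and the Ms4a3 call also without the WT control or the STAT4-/- control pair. The count of 6 became 1 without the WT HFD pair, 1 without the STAT6-/- HFD pair, 3 without the WT control pair and 3 without the STAT4-/- control pair, and 0 without the 2 pairs of low Y-linked signal.

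Secondary granule genes were lower in part. Of 8 measured, 4 were lower and 0 higher, with a median of -0.77, and 7 were lower without the STAT4-/- HFD pair or the 2 outlying pairs and 2 without the 2 pairs of low Y-linked signal. Itgb2l, an integrin beta chain gene of maturing mouse neutrophils, differed by -2.16 (SE 0.39, adjusted p 0.00363), Cd177 by -1.59 (SE 0.34) and the lactoferrin gene Ltf by -0.93 (SE 0.23). The granule protein genes Ngp (-0.23, adjusted p 0.456) and Camp (-0.48, adjusted p 0.0892) were not called.

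Most mature neutrophil genes were lower in spleen. Of 17 measured, 12 were lower in spleen, 0 were higher, and the median was -0.78. Trem1, an activating receptor of neutrophils and monocytes, had a level of 1.01, 3.21 and 3.84 in spleen, against 2.40, 5.20 and 5.94 in marrow. It was lower in spleen in 8 of 8 pairs, by 2.00 (SE 0.20, adjusted p 0.000678), although the ranges overlapped. The gelatinase gene Mmp9 differed by -1.85 (SE 0.27), Padi4, the enzyme that citrullinates histones, by -1.66 (SE 0.28), and the formyl peptide receptor gene Fpr1 by -1.38 (SE 0.21). The calprotectin genes S100a8 (-0.31, SE 0.20) and S100a9 (-0.34, SE 0.18), the chemokine receptor gene Cxcr2 (-0.34, SE 0.21) and Il1b (-0.05, SE 0.22) were not called. S100a8 stood at 5.65, 6.09 and 6.77 in spleen and 5.77, 6.54 and 6.82 in marrow, and the tissues overlapped almost fully. Genes of the respiratory burst and of Fc gamma receptors were lower too, 8 of 11 with 0 higher and a median of -0.71, among them the oxidase subunit gene Ncf1 (-1.25, SE 0.27). That count was 3 to 9 when 1 pair was left out, lowest without the WT HFD or the STAT6-/- HFD pair, and was 5 without the WT control pair, 4 without the STAT4-/- control pair, 4 without the STAT6-/- control pair, 5 without the HDC-/- HFD pair and 4 without the 2 pairs of low Y-linked signal.

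**Figure D2:**
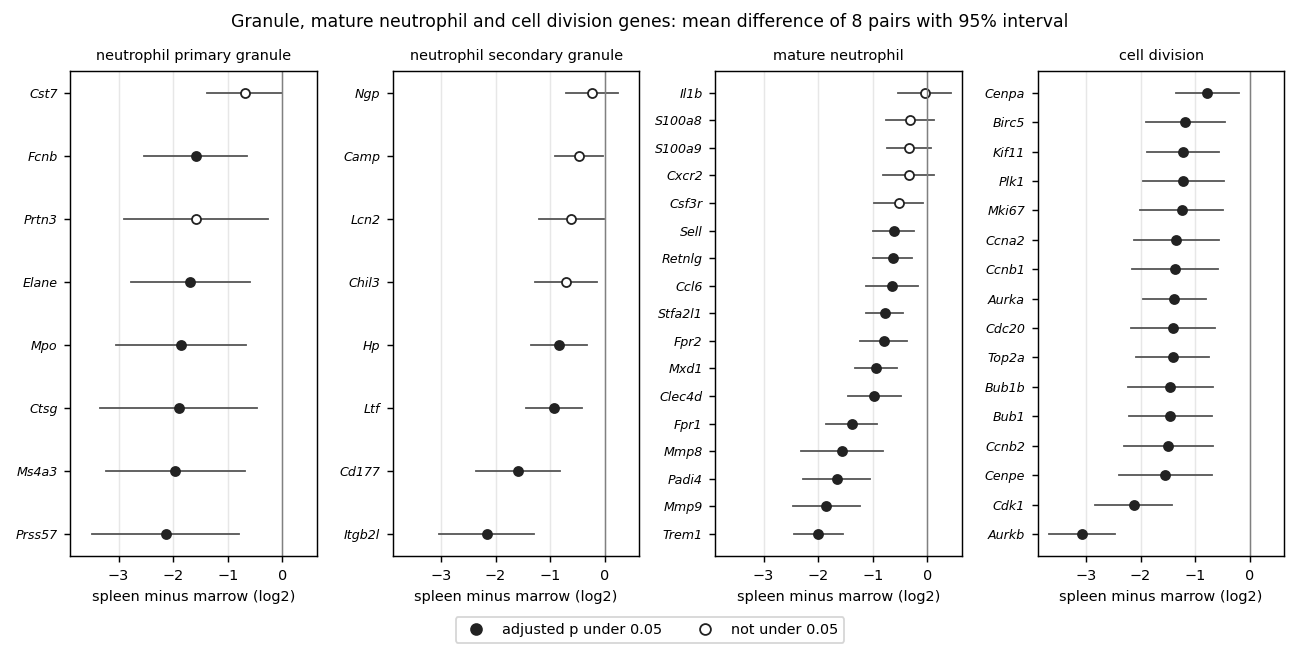
Spleen minus marrow difference (log2, x axis) of each measured gene of the primary granule, secondary granule, mature neutrophil and cell division lists, with points at the mean of 8 pairs, lines for the 95% interval, and filled points where the adjusted p was under 0.05. No gene of these lists lies clearly to the right of 0, and Il1b (-0.05) lies nearest to it.

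Mitotic genes were lower in spleen without exception in the list: 16 of 16 called lower, with a median of -1.39, and again 16 without the 2 outlying pairs, but 5 without the 2 pairs of low Y-linked signal. Aurkb, the kinase of the chromosomal passenger complex, had a level of -6.51, -5.49 and -4.42 in spleen, against -3.04, -2.40 and -2.03 in marrow, and the groups did not overlap. Its difference was -3.07 (SE 0.27, adjusted p 0.000437). Cdk1, the kinase that drives entry into mitosis, stood at -1.20, -0.13 and 1.26 in spleen, against 1.63, 2.06 and 2.24 in marrow, also without overlap, a difference of -2.13 (SE 0.31, adjusted p 0.00182). The other 14 differences ran from -1.55 (Cenpe, a kinetochore motor) to -0.78 (Cenpa, the centromeric histone), and Mki67 differed by -1.25 (SE 0.34). Of these 14, Top2a was lower in spleen in 8 of 8 pairs and the others in 7, with the STAT4-/- HFD pair at 0.19 for the mean of the list and the other pairs at -2.81 to -0.67. Of the genes of DNA replication 9 of 15 were lower and 0 higher, with a median of -0.91. The cyclin gene Ccne2 differed by -4.13 (SE 0.39), but only 1 of 8 spleen arrays had it above background. Pcna, the polymerase clamp, did not pass the test (-0.35, SE 0.15, adjusted p 0.11). The replication count was 4 without the WT HFD pair, 4 without the STAT6-/- HFD pair, 5 without the STAT4-/- control pair and 3 without the 2 pairs of low Y-linked signal.

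Promoters of these mitotic genes are known for a cell cycle homology region, TTTGAA, and for CCAAT boxes, so the RefSeq promoter windows (build GRCm38.p6, 250 bases before to 50 after the start) of Cdk1 and Cdc20 are shown for 2 of the genes that were lower in spleen. Cdk1 lies on the minus strand at chr10:69352863-69353162 and Cdc20, the activator of the anaphase-promoting complex (-1.41, SE 0.35), on the minus strand at chr4:118437294-118437593. Capitals mark TTTGAA and CCAAT on either strand, CCAAT on the other strand being read as ATTGG.
Cdk1: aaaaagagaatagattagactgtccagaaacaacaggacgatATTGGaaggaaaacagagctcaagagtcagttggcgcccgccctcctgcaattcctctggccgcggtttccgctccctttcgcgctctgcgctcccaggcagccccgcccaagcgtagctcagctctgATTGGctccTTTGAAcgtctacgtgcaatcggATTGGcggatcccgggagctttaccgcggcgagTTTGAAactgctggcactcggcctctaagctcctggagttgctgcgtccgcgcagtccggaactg
Cdc20: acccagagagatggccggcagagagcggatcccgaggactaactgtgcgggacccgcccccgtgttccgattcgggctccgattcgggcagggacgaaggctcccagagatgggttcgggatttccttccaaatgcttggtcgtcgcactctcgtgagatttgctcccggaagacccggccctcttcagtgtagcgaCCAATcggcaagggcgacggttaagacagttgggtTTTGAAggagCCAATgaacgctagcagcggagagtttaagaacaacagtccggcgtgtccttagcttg
In Cdk1 the TTTGAA matches begin 71 and 15 bases before the start, and in Cdc20 18 bases before it. Of the 16 genes 14 had a window, and 10 of these 14 held TTTGAA on either strand, against 20.2% of all 27025 genes with a window, and 13 of 14 held CCAAT, against 41.1%. Of 13 replication genes with a window 3 held TTTGAA. A match of letters is a description of the window.

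Eosinophil granule genes were lower in spleen while 2 eosinophil receptor genes were higher. Epx, eosinophil peroxidase, had a level of -5.66, -1.87 and 0.69 in spleen, against -0.46, 1.21 and 2.90 in marrow, a difference of -3.18 (SE 0.49, adjusted p 0.00211) seen in 8 of 8 pairs. The granule protein genes Prg3 (-2.63, SE 0.39) and Prg2 (-2.41, SE 0.54) were lower in every pair as well. Ccr3, the eotaxin receptor, was higher by 1.38 (SE 0.27, adjusted p 0.00517) in 8 of 8 pairs, and Il5ra by 1.19 (SE 0.36, adjusted p 0.0297) in 6. In all, 6 of 8 were lower and 2 higher (median -1.31). The Il5ra call was lost without any 1 of 5 pairs (WT control, WT HFD, STAT4-/- control, HDC-/- control or HDC-/- HFD, adjusted p 0.06 to 0.0746), and that of Alox15 (-1.42, SE 0.41) without the WT HFD, STAT4-/- control, STAT4-/- HFD, STAT6-/- control or STAT6-/- HFD pair. Alox15 and Il5ra were also not called with slide as a random block in place of pair (adjusted p 0.0916 and 0.166). Nor were they called with no replicate block (adjusted p 0.166 and 0.241). The basophil proteases Prss34 (-2.25, SE 0.54) and Mcpt8 (-1.61, SE 0.50) were lower, and the mast cell chymase Cma1 was higher by 3.41 (SE 0.53), above background on 8 spleen and 4 marrow arrays. In that list of 9, 1 was higher and 2 lower (median -0.48), and 1 was lower without the 2 outlying pairs. Of all features 14.3% were higher and 18.4% lower. Without the 2 pairs of low Y-linked signal 1 eosinophil gene was higher and 1 gene of the basophil and mast cell list lower. Mcpt8 was not called without the 2 outlying pairs (-0.92, adjusted p 0.109), nor without any 1 of the WT HFD, STAT4-/- control, STAT4-/- HFD, STAT6-/- control or HDC-/- control pairs (adjusted p 0.0527 to 0.0797).

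Of 14 megakaryocyte and platelet genes 5 were lower in spleen and 0 higher (median -0.84), among them the platelet receptor gene Gp1ba (-1.64, SE 0.41) and platelet factor Pf4 (-1.62, SE 0.40). Of 13 stem and progenitor genes Myb (-1.73, SE 0.34), Cd34 (-1.60, SE 0.44) and Hlf (-0.95, SE 0.25) were lower, whereas Slamf1 (3.37, SE 0.47) and Procr (2.61, SE 0.39) were higher. Kit, the stem cell factor receptor, differed by 0.25 (SE 0.21). The list thus had 2 of 13 higher and 3 lower, where 14.3% of all features were higher and 18.4% lower. The median of the list was -0.35, and the Cd34 call was lost without the STAT4-/- control pair (adjusted p 0.0519). Slamf1 is also carried by lymphocytes. Without the 2 pairs of low Y-linked signal 3 megakaryocyte and platelet genes were called. In the erythroid list 4 of 14 genes were higher and 0 lower (median 1.08), among them Hba-a1 (1.73, SE 0.52) and the haem synthesis gene Alas2 (2.31, SE 0.71). The mean of this list was higher in spleen in every pair but HDC-/- control, where the difference was -2.05. Without that pair, and without both outlying pairs, 11 of the 14 were called, and 10 without the 2 pairs of low Y-linked signal. With 1 other pair left out the count fell to 2 (WT control, STAT4-/- HFD) or 1 (STAT4-/- control), and without the WT HFD, STAT6-/- control, STAT6-/- HFD or HDC-/- HFD pair 0 were.

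Most of the called pro-B and pre-B genes were lower in spleen. The surrogate light chain genes Vpreb2 (-4.01, SE 0.67), Vpreb1 (-3.44, SE 0.69) and Igll1 (-3.20, SE 0.74), the recombinase gene Rag1 (-3.40, SE 0.92) and Dntt (-2.34, SE 0.54) were lower in spleen. Of these, Vpreb2 was above background on 2 spleen and 8 marrow arrays, Rag1 on 4 and 7, and Igll1 on 7 and 8, so that the sizes of their differences rest in part on signals not well above background, and the Rag1 call was lost under normexp (-1.49, adjusted p 0.0502). Vpreb1 ran from -4.96 to -1.21 in spleen (median -4.50), against -3.60 to 3.30 in marrow (median -0.82), and its highest value was on the marrow HDC-/- control array. Ebf1 (2.75, SE 0.63) and Il7r (2.30, SE 0.59), which mature B cells and T cells also express, were higher, so that 5 of 10 were lower and 2 higher (median -1.75). The mean of the 10 genes differed by -4.59 in the HDC-/- control pair and by 0.97 in the HDC-/- HFD pair.

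Bone and stromal genes were lower in spleen as well. Cxcl12, the niche chemokine that holds Cxcr4-bearing cells in marrow, had a level of -6.87, -6.31 and -5.32 in spleen, against -3.66, -2.44 and 2.42 in marrow, with no overlap and a difference of -4.38 (SE 0.53, adjusted p 0.00109). The collagen gene Col1a1 differed by -3.29 (SE 0.58) and osteopontin, Spp1, by -2.11 (SE 0.23). Of 12 marrow stroma and bone genes, 5 were above background on all 16 arrays and 7 on all 8 spleen arrays. Some of their differences thus rest in part on signals not well above background. Of the 12, 8 were lower and 1 higher, with a median of -1.21, and 5 were lower without the 2 pairs of low Y-linked signal. The higher one was the phosphatase gene Alpl (3.33, SE 0.57), above background on 8 spleen and 6 marrow arrays. Ctsk, the collagen-cutting protease of osteoclasts, had a level of -3.78, -3.14 and -2.97 in spleen, against -1.07, -0.33 and 1.85 in marrow, the widest gap on the lower side among genes above background on all 16 arrays (-3.33, SE 0.38, adjusted p 0.000973). The calcitonin receptor gene Calcr, above background on no spleen array and on 6 marrow arrays, was at least 2.43-fold lower in spleen. Acp5, tartrate-resistant acid phosphatase, was higher by 1.54 (SE 0.46, adjusted p 0.0295), and this call was lost without any 1 of the WT control, WT HFD, STAT6-/- control, STAT6-/- HFD or HDC-/- HFD pairs (adjusted p 0.0534 to 0.0794). Of 10 osteoclast genes 5 were lower and 1 higher (median -0.50). Stromal genes of the spleen showed no common direction, with 2 of 11 higher and 4 lower (median -0.30). Of the 11, 5 were above background on all 16 arrays. Postn was higher by 5.85 (SE 0.29), above background on 8 spleen and 2 marrow arrays, and the B cell zone chemokine gene Cxcl13 was at least 1.86-fold higher. Of 9 endothelial genes the scavenger receptor gene Stab2 (2.34, SE 0.31) and Pecam1 (1.14, SE 0.22) were higher, Tie1 (-1.80, SE 0.43) was lower and 6 were not called (median -0.15). Of the 9, 6 were above background on all 16 arrays. Of all features 14.3% were higher and 18.4% lower. Without the 2 outlying pairs 3 endothelial genes were higher and 2 lower.

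Classical monocyte genes did not share a direction. Ccr2, the receptor that releases these monocytes from marrow, stood at 0.08, 0.78 and 2.85 in spleen and 0.13, 1.16 and 1.74 in marrow, and its difference of 0.11 had a SE of 0.41. Csf1r, the growth factor receptor of all monocytes and macrophages, differed by 0.53 (SE 0.19, adjusted p 0.0595). Of 9 genes 0 were higher and 2 lower (median 0.11), Cd14 (-0.94) and the factor XIII gene F13a1 (-1.08). Of all features 14.3% were higher and 18.4% lower. The Cd14 call was lost without any 1 of 6 pairs (all but STAT4-/- HFD and HDC-/- control, adjusted p 0.0722 to 0.109). It was also lost with slide as a random block in place of pair (adjusted p 0.169) and with no replicate block (adjusted p 0.244). The F13a1 call was lost without the WT HFD, STAT4-/- control, STAT6-/- control or HDC-/- HFD pair or both outlying pairs. Cd14 was not called under quantile normalization (adjusted p 0.0686) or normexp (adjusted p 0.166), nor F13a1 under the first (adjusted p 0.071). Nonclassical monocyte genes leaned to spleen, with 5 of 10 higher and 1 lower and a median of 0.89. Cd300e, a receptor of patrolling monocytes, had a level of -2.90, -0.40 and 1.63 in spleen, against -3.52, -2.97 and -2.36 in marrow (difference 2.48, SE 0.45, adjusted p 0.00366). Pou2f2, a transcription factor that B cells share, differed by 2.41 (SE 0.36), and Adgre4 by 1.75 (SE 0.41). Cx3cr1, the fractalkine receptor that defines these cells, differed by -0.06 (SE 0.48, adjusted p 0.942), with 3 of 8 pairs higher, and Spn, CD43, was lower (-0.80, SE 0.23), a call lost without any 1 of the WT control, WT HFD, STAT4-/- control, STAT6-/- control or STAT6-/- HFD pairs (adjusted p 0.051 to 0.0657).

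Several red pulp macrophage genes were higher in spleen, whereas genes of iron export and storage were not called. Spic, the transcription factor that these macrophages need, had a level of -0.29, 0.76 and 2.48 in spleen, against -4.32, -3.58 and 0.32 in marrow. It was higher in 8 of 8 pairs, by 3.92 (SE 0.31, adjusted p 0.000408), and only the highest marrow array entered the spleen range. Cd5l (3.59, SE 0.49), the efferocytosis receptor genes Mertk (2.80, SE 0.33) and Axl (2.66, SE 0.31), and Hpgd (2.37, SE 0.34) were higher as well. Hmox1, haem oxygenase, stood at 3.50, 3.66 and 4.34 in spleen, against 1.51, 2.40 and 3.19 in marrow, without overlap (difference 1.45, SE 0.28). The ferroportin gene Slc40a1 (-0.25, SE 0.16), the haem transporter gene Slc48a1 (-0.30, SE 0.21), the ferritin genes Ftl1 (-0.17, SE 0.20) and Fth1 (-0.29, SE 0.18), and Slc11a1 (-0.29, SE 0.25) were not called. The list had 7 of 16 genes higher, 0 lower and a median of 0.93, and 9 were higher without the 2 outlying pairs. The difference of its mean in the STAT4-/- HFD pair (1.06) lay within the range of the other pairs (0.66 to 2.00).

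Of 5 marginal zone macrophage genes 3 were higher and 0 lower (median 0.96). The oxysterol receptor gene Nr1h3, LXR alpha, had a level of -1.28, -0.06 and 1.95 in spleen, against -3.66, -2.92 and -0.68 in marrow (2.70, SE 0.25, adjusted p 0.000437). Cd209b, the lectin SIGN-R1, was higher by 1.50 (SE 0.37), above background on 7 spleen and 2 marrow arrays. Marco (-0.16, SE 0.37) and Siglec1 (0.30, SE 0.27) were not called. The 3 complement C1q chain genes were higher together, C1qc by 2.72 (SE 0.32), C1qa by 2.54 (SE 0.35) and C1qb by 2.53 (SE 0.33), each in 8 of 8 pairs. Of 12 complement genes 4 were higher and 3 lower (median 0.56), where 14.3% of all features were higher and 18.4% lower. The lower members were the C5a receptor gene C5ar1 (-1.27, SE 0.22), C3 (-1.05, SE 0.26) and the properdin gene Cfp (-0.62, SE 0.19, adjusted p 0.0301). The Cfp call was lost under quantile normalization (adjusted p 0.106) and without any 1 of 6 pairs (all but STAT4-/- HFD and HDC-/- control). The scavenger receptor genes Cd36 (2.75, SE 0.33) and Mrc1 (2.49, SE 0.35) were higher, and Olr1 (-2.19, SE 0.34) and Stab1 (-1.17, SE 0.16) lower, with the other 4 of 8 not called (median -0.46).

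Conventional dendritic cell genes were higher in spleen across the list, 14 of 17 with 0 lower and a median of 2.27. Batf3, the transcription factor of the cross-presenting subset, had a level of -1.78, 0.26 and 1.23 in spleen, against -3.39, -3.11 and -2.80 in marrow, and the groups did not overlap (3.22, SE 0.35, adjusted p 0.000865). Clec9a (3.03, SE 0.30), the dead-cell receptor gene of the same subset, did not overlap either. Xcr1, its chemokine receptor gene, was above background on 7 spleen arrays and on 0 marrow arrays and was at least 4.98-fold higher. Genes of the other subset, which carries CD11b, were higher by amounts of the same order: Clec4a4 by 2.93 (SE 0.42), Cd209a by 2.81 (SE 0.42) and Irf4 by 2.80 (SE 0.50). Zbtb46, expressed by both subsets, differed by 0.63 (SE 0.18, adjusted p 0.0224), and Clec10a, Dnase1l3 and Wdfy4 were not called. Plasmacytoid dendritic cell genes were higher for 5 of 9 with 0 lower (median 1.10), among them Bst2 (1.51, SE 0.23), while the defining receptor gene Siglech did not pass (1.10, SE 0.42, adjusted p 0.0709).

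MHC class II genes, which display antigen to helper T cells, were higher in spleen. Of 13 measured, 11 were higher and 0 lower, with a median of 2.75, and for 6 of them the groups did not overlap. Cd74, the invariant chain, had a level of 4.40, 5.97 and 6.22 in spleen, against 1.40, 2.62 and 3.46 in marrow (3.20, SE 0.28, adjusted p 0.000437, 9.19-fold). Within the spleen arrays STAT4-/- HFD held the lowest value, and the other 7 lay at 5.86 or above. H2-Oa stood at -0.09, 3.19 and 3.91 in spleen, against -2.60, -2.22 and -0.52 in marrow (4.69, SE 0.41), and H2-Ob differed by 3.55 (SE 0.47). These 2 genes encode H2-O, a modulator of peptide loading that is prominent in B cells. The peptide exchange factor genes H2-DMb2 (4.32, SE 0.52), H2-DMb1 (3.47, SE 0.28) and H2-DMa (2.67, SE 0.34) and the classical chains H2-Eb1 (2.75, SE 0.25) and H2-Ab1 (2.20, SE 0.25) were higher in 8 of 8 pairs. Ciita, the coactivator that switches this family on, was not called at the probe read here (0.20, SE 0.26, adjusted p 0.6), and nor was Ctss (0.51, SE 0.19).

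Class II promoters carry an X box and a Y box, the second holding a CCAAT element on the other strand. The RefSeq windows (build GRCm38.p6) of H2-Oa, plus strand, chr17:34092129-34092428, and of H2-Eb1, plus strand, chr17:34305617-34305916, are shown as the most different member and a classical chain. Capitals mark CCAAT on either strand (the Y box core being the form on the other strand, read as ATTGG) and AGCAAC (part of the X box of many members).
H2-Oa: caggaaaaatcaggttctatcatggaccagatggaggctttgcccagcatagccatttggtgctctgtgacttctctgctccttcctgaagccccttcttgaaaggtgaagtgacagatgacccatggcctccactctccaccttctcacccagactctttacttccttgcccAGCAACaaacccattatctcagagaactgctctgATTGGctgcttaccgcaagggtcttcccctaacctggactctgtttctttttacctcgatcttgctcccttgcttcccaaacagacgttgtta
H2-Eb1: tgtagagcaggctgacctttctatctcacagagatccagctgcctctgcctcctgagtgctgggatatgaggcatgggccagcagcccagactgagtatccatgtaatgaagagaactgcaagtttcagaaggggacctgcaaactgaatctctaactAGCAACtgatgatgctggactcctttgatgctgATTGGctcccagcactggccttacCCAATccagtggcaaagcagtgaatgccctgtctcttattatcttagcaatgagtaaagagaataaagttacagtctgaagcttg
In H2-Oa AGCAAC begins 77 and the CCAAT element 43 bases before the start. In H2-Eb1 AGCAAC begins 92 and the CCAAT elements 59 and 35 bases before the start. The element at 35 lies on the strand of the gene and so is not of the Y box form. Of the 13 genes 9 had a window, of which 7 held CCAAT on either strand (41.1% of all genes) and 4 held AGCAAC (16.7% of all genes). None of the 9 held TTTGAA, which 10 of 14 mitotic promoters held.

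Lymphocyte genes were higher in spleen on arrays of CD11b+ cells. All 14 mature B cell genes were called higher, with a median of 3.22. Ms4a1, CD20, had a level of 0.84, 4.17 and 5.14 in spleen, against -2.72, -1.66 and 2.57 in marrow (4.85, SE 0.46, adjusted p 0.000506). Fcer2a, CD23, did not overlap between tissues (3.27, SE 0.36). Cr2, the complement receptor gene of follicular and marginal zone B cells, was higher by 5.14 (SE 0.42), but of 7 marginal zone B cell genes only 3 were higher (median 0.32), and Notch2 (-0.93, SE 0.22) and Cd9 (-0.87, SE 0.20), which other cells share, were lower. Plasma cell genes were higher for 7 of 10 with 0 lower (median 1.92), led by Mzb1 (3.61, SE 0.47), while Xbp1 (0.41) and Eaf2 (0.05, SE 0.16) were not called.

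T cell genes were higher for 13 of 15, with a median of 2.94. Lck, the kinase of the T cell receptor, stood at -1.35, 2.99 and 3.41 in spleen, against -3.01, -1.99 and 0.74 in marrow (3.87, SE 0.57). Bcl11b (4.97, SE 0.76), Cd5 (4.40, SE 0.53), Tcf7 (4.01, SE 0.42) and Cd8a (3.28, SE 0.32) were higher in every pair. Bcl11b was above background on 8 spleen and 5 marrow arrays. Cd3d alone was lower (-1.08, SE 0.26, adjusted p 0.0116), at 2.42, 3.01 and 4.41 in spleen and 3.13, 4.37 and 4.74 in marrow, whereas Cd3e, from the same receptor complex, was higher by 2.61 (SE 0.36). Each was read from 1 probe. All 8 genes of the GIMAP family, small GTPases of lymphocytes, were higher with a median of 4.66, from Gimap9 (1.03, SE 0.17) to Gimap7 (5.63, SE 0.64). All 8 were above background on every spleen array and 6 on every marrow array. Natural killer cell genes were higher for 12 of 15 with 0 lower (median 2.75), among them Tbx21 (3.65, SE 0.49), Ncr1 (3.57, SE 0.68) and Prf1 (2.21, SE 0.40), and Nkg7 (-0.39, SE 0.22) and Klre1 (0.32, SE 0.43) were not called.

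Lymphoid signal is given here beside the other results because B cells also carry class II, several chemokine receptors and Pou2f2. The mean of the mature B cell list was -1.02 to 2.52 in spleen (median 2.02), against -3.08 to 0.27 in marrow (median -1.78), with 12 of its 14 genes above background on all 16 arrays. The T cell list ran from -2.02 to 0.98 in spleen, against -3.14 to -2.10 in marrow, and the natural killer list from -3.49 to 1.00, against -4.22 to -1.51. The defining T cell and natural killer cell markers Cd3e and Ncr1 were above background on all 8 spleen arrays, and Cd3e on all 8 marrow arrays too. On the spleen STAT4-/- HFD array, where the B cell list was lowest among the spleen arrays, the class II list (0.58) and the dendritic cell list (-1.39) were lowest too. The part of lymphocytes in the class II, chemokine receptor and dendritic cell differences was not tested. In pooled RNA, fewer cells of a type and less RNA per cell cannot be told apart.

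Of 18 chemokine receptor genes 11 were higher and 2 lower, with a median of 1.22. Without the 2 outlying pairs 10 were higher and 1 lower. Ccr6 had a level of -0.63, 3.39 and 4.32 in spleen, against -4.24, -3.65 and -0.23 in marrow (6.04, SE 0.52, adjusted p 0.000437). Cxcr5 (4.83, SE 0.40), Cxcr6 (4.12, SE 0.52) and Ccr7 (4.10, SE 0.51), receptors of lymphocytes and dendritic cells, followed. The myeloid receptor gene Ccr1 was lower, at -1.80, -0.44 and 0.53 in spleen, against 0.44, 1.20 and 1.89 in marrow (-1.81, SE 0.30, adjusted p 0.00277). Cxcr4, the receptor for Cxcl12, was lower by 0.59 in 8 of 8 pairs (difference -0.59, SE 0.19, adjusted p 0.0348). That call was lost under quantile normalization (adjusted p 0.245), normexp (adjusted p 0.136), without the 2 outlying pairs (adjusted p 0.0649) and without any 1 of the WT HFD, STAT4-/- HFD, STAT6-/- control, STAT6-/- HFD or HDC-/- HFD pairs. Ccr2, Cx3cr1, Cxcr1, Cxcr2 and Ccr8 were not called. Among receptors for sphingosine 1-phosphate, the lipid that draws cells into blood, S1pr1 was higher by 2.89 (SE 0.38) and S1pr5, a receptor of natural killer cells and patrolling monocytes, by 3.04 (SE 0.58), and S1pr4 was lower (-1.18, SE 0.20), with the other 2 of 5 not called (median 0.32).

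Chemokine ligands were split evenly, 7 of 21 higher and 7 lower (median -0.39). Cxcl9, induced by interferon gamma, had a level of -3.30, -0.54 and 1.45 in spleen, against -6.26, -5.09 and -1.37 in marrow (3.86, SE 0.35). Ccl5, a product of T and natural killer cells, was higher by 3.41 (SE 0.52) and Ccl24, an eosinophil attractant, by 2.08 (SE 0.34). Next to Cxcl12 on the lower side stood Ccl7 (-2.08, SE 0.31), above background on 3 spleen and 7 marrow arrays, and Ccl19 (-1.58, SE 0.29). The count of 7 lower was 3 without the WT HFD pair, 3 without the STAT6-/- HFD pair, and 4 without the STAT4-/- HFD, STAT6-/- control or HDC-/- HFD pair or both outlying pairs.

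**Figure D3:**
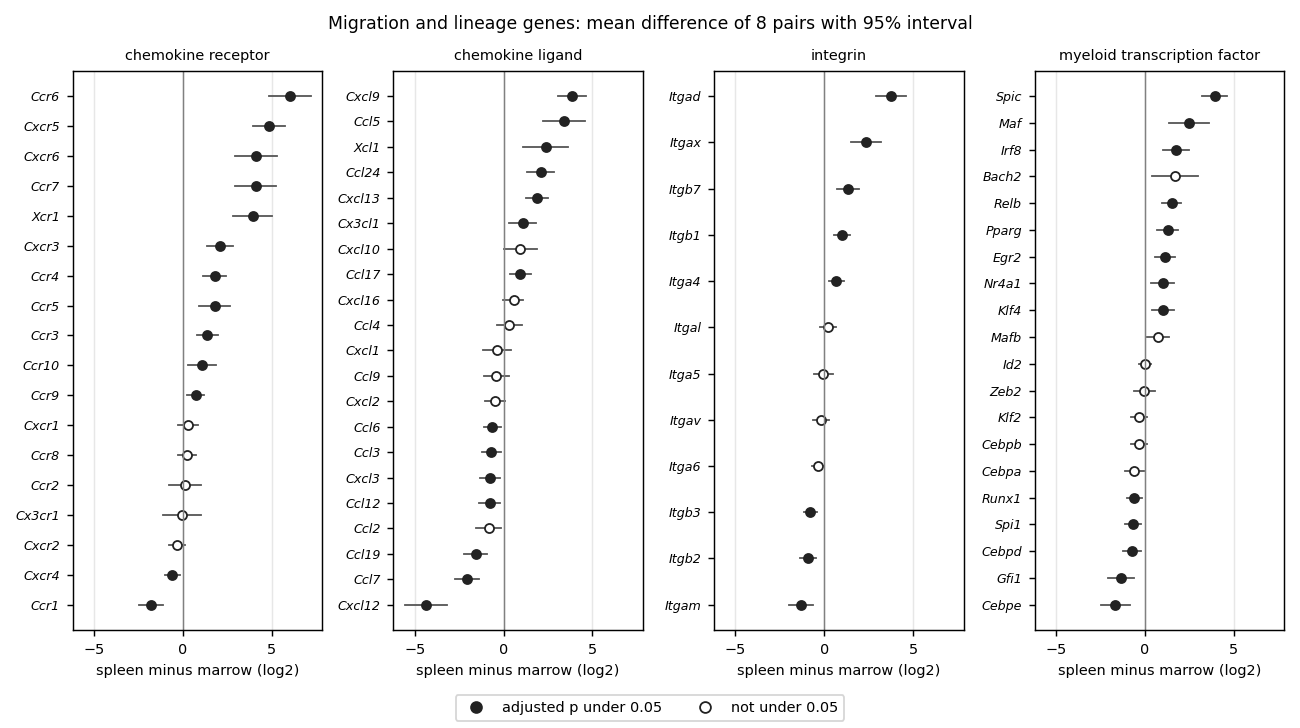
Spleen minus marrow difference (log2, x axis) of each measured chemokine receptor, chemokine ligand, integrin and myeloid transcription factor gene, with points at the mean of 8 pairs, lines for the 95% interval, and filled points where the adjusted p was under 0.05. The receptors run from Ccr6 (6.04) to Ccr1 (-1.81), the ligands from Cxcl9 (3.86) to Cxcl12 (-4.38), the integrins from Itgad to Itgam and the factors from Spic to Cebpe.

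Of 20 myeloid transcription factor genes 8 were higher and 5 lower (median 0.37). All 20 were above background on 16 arrays, and of all such features 15.7% were higher and 26.6% lower. Among the higher were Spic, Maf (2.46, SE 0.50), Irf8 (1.75, SE 0.32), Relb (1.50, SE 0.25) and Pparg (1.28, SE 0.26). Cebpe, needed for secondary granules, had a level of 2.46, 4.23 and 6.10 in spleen, against 5.45, 5.96 and 6.57 in marrow (-1.66, SE 0.36, adjusted p 0.00763), and Gfi1 differed by -1.36 (SE 0.32). Spi1, PU.1, was lower by 0.68 (difference -0.68, SE 0.21, adjusted p 0.0343), as were Cebpd (-0.73, SE 0.22) and Runx1 (-0.60, SE 0.18). The Cebpd call was lost without any 1 of the WT control, WT HFD, STAT6-/- control, STAT6-/- HFD or HDC-/- HFD pairs (adjusted p 0.0557 to 0.0777). Id2 (0.00, SE 0.16) and Zeb2 (-0.03, SE 0.28) were near 0. The count of 5 lower was 2 without the WT HFD, STAT6-/- control or STAT6-/- HFD pair and 3 without the WT control or HDC-/- HFD pair.

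Of 12 Toll-like receptor genes, sensors of microbial products, 4 were higher and 4 lower (median -0.30). Of the 12, 11 were above background on all 8 spleen arrays and 9 on all 8 marrow arrays. Some of the differences thus rest in part on signals not well above background. Tlr11, a sensor of profilin, had a level of -3.43, -2.01 and -0.78 in spleen, against -8.70, -5.80 and -4.75 in marrow, without overlap (4.14, SE 0.29, adjusted p 0.000267). Its partner Tlr12 (3.18, SE 0.43) and the double-stranded RNA sensor gene Tlr3 (3.79, SE 0.48), above background on 7 spleen and 1 marrow arrays, were higher, as was Tlr1 (1.41, SE 0.34). The flagellin sensor gene Tlr5 (-1.22, SE 0.17), Tlr13 (-1.06, SE 0.26), Tlr9 (-0.95, SE 0.14) and Tlr2 (-0.90, SE 0.20) were lower. Tlr4 (-0.31, SE 0.19) and Tlr7 (-0.57, SE 0.41) were not called.

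Of 22 type I interferon response genes 6 were higher and 0 lower (median 0.35), among them Ifi44 (1.27, SE 0.26) and Isg15 (0.95, SE 0.20). These 2 were not called with slide as a random block in place of pair (adjusted p 0.0557 and 0.1). Nor were they called with no replicate block (adjusted p 0.219 and 0.181). The count of 6 was 3 without the WT control, STAT4-/- control, STAT6-/- control, STAT6-/- HFD or HDC-/- control pair or the 2 pairs of low Y-linked signal, and without the 2 outlying pairs 4 were higher and 5 lower. The mean of the list ran from 0.50 to 3.94 in spleen and from 0.61 to 2.97 in marrow. Of 13 immediate early genes, which respond to handling of cells, Egr2 (1.13, SE 0.24) and Nr4a1 (1.01, SE 0.29) were higher and 0 lower (median 0.21), with 1 higher and 1 lower without the 2 pairs of low Y-linked signal, and the Nr4a1 call was lost without the WT HFD, STAT4-/- control, STAT6-/- HFD or HDC-/- HFD pair. Fos (-0.18, SE 0.23), Jun (0.29, SE 0.25) and Dusp1 (-0.09, SE 0.20) were not called.

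Cholesterol genes are given because the diet served as a model of atherosclerosis. Of 9 genes in a list of cholesterol efflux and LXR genes 6 were higher and 1, Nr1h2 (-0.85), lower (median 0.62). Without the 2 outlying pairs 6 were higher and 2 lower. The Nr1h2 call was lost under normexp (adjusted p 0.064) and without any 1 pair other than STAT4-/- HFD and HDC-/- control (adjusted p 0.0511 to 0.0702). The exporter gene Abca1 had a level of -1.66, 0.96 and 1.49 in spleen, against -2.66, -2.0 and -0.24 in marrow (2.49, SE 0.40, adjusted p 0.00237), with its lowest spleen value on the STAT4-/- HFD array. Abcg1 differed by 0.62 (SE 0.18) and Apoe by 1.00 (SE 0.30, adjusted p 0.0292). The Apoe call was lost without any 1 pair other than STAT4-/- HFD and HDC-/- HFD (adjusted p 0.0536 to 0.0768). Only 3 were higher without the WT control pair, and 2 without the STAT4-/- control pair, the STAT6-/- HFD pair or the 2 pairs of low Y-linked signal. Of 13 sterol synthesis and uptake genes, all above background on 16 arrays, 4 were lower and 0 higher (median -0.45), where 26.6% of such features were lower. Without the 2 outlying pairs 5 were lower and 1 higher. Among the lower genes were Idi1 (-1.08, SE 0.22), Fdps (-0.96, SE 0.20) and Hmgcs1 (-0.73, SE 0.21), the last lost without any 1 of the WT HFD, STAT4-/- control, STAT6-/- control, STAT6-/- HFD or HDC-/- HFD pairs.

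For some single genes the tissues did not overlap at all. Adam23, which encodes a membrane protein of the ADAM family, was above background on all 8 spleen arrays and on 0 marrow arrays, at -3.53, -1.12 and 0.26 in spleen, against -8.57, -7.56 and -6.23 in marrow, and was at least 36.6-fold higher. Among genes above background on all 16 arrays, the heat shock gene Hspa1a had the widest gap on the higher side, at -1.24, 0.86 and 2.96 in spleen, against -5.61, -3.58 and -2.86 in marrow (4.53, SE 0.38, 23-fold). Havcr2, the TIM-3 receptor, followed at -2.16, 0.43 and 1.32 in spleen, against -4.53, -4.13 and -3.59 in marrow (4.23, SE 0.33). The complement component gene C6 (2.68, SE 0.44), Naaa (1.77, SE 0.19) and Pomc (1.83, SE 0.21) also did not overlap, nor did Stra6l, Fam149a and Gpr141b. On the lower side Smg8, a regulator of nonsense-mediated decay, came after Ctsk, at -5.79, -5.23 and -4.85 in spleen, against -3.13, -2.88 and -2.49 in marrow (-2.37, SE 0.15, adjusted p 0.000206). The copper chaperone gene Cox17 differed by -2.31 (SE 0.18), C1ra by -1.88 (SE 0.19) and Ostf1 by -1.36 (SE 0.16). Aurkb, described above, and Zfp985, Ctdsp2, Uchl3, Prss28, Arfip1 and Myl2 completed the 12, the last 6 with differences of -2.06 to -1.19.

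**Figure D4:**
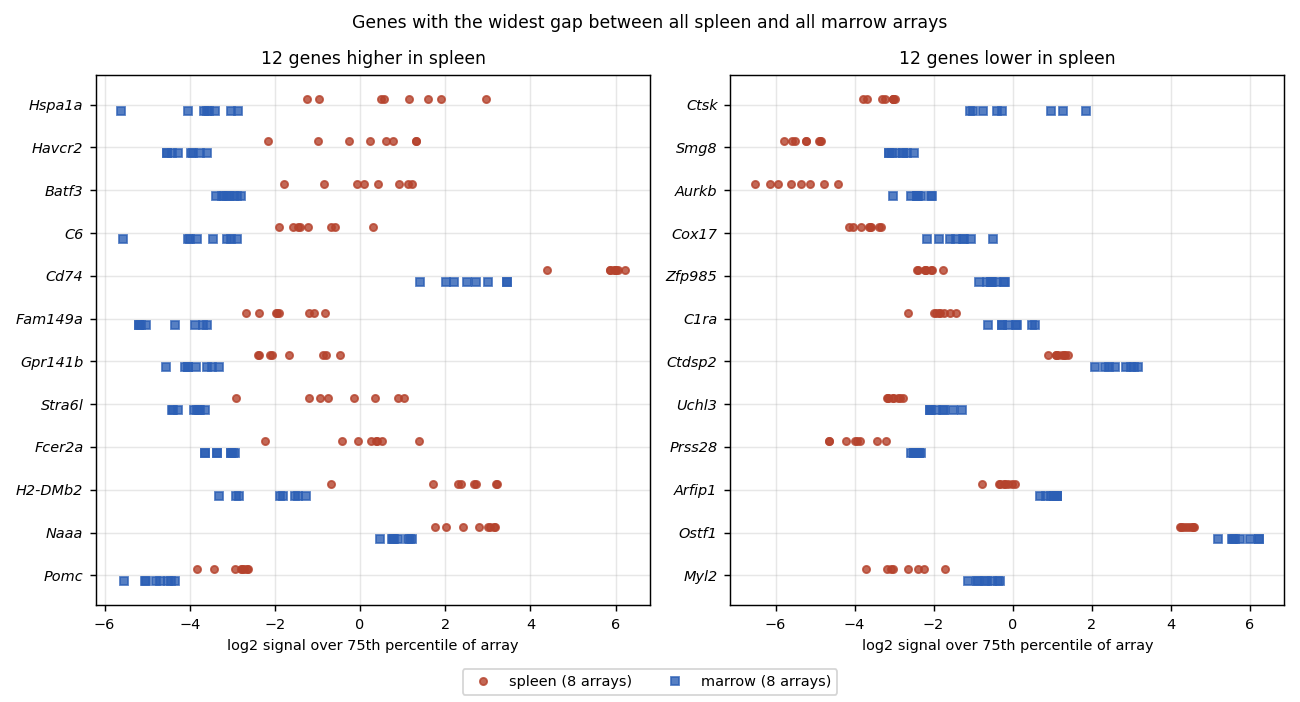
Level of the 24 genes with the widest gap between tissues among genes above background on all 16 arrays, one row per gene, with 8 spleen arrays as circles above 8 marrow arrays as squares (x axis, log2 signal over the array's 75th percentile). The left panel holds genes higher in spleen, led by Hspa1a, and the right panel genes lower in spleen, led by Ctsk, and in no row do the 2 sets of points overlap.

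Did the tissue difference depend on diet or genotype? By diet, 0 features were called by limma (0%) and 733 had an unadjusted p under 0.05, with Cntnap4, Ror2, Cyp7b1, Dnase1 and Nectin4 at the smallest p and an adjusted p of 1. Genotype terms called 1545 features (5.37%), but 0 under quantile normalization, median scaling, normexp, the stricter filter of 16 arrays above background, or without any 1 pair. Split by slide after the data were seen, the contrast of STAT6-/- and HDC-/- with WT and STAT4-/-, whose arrays lie on different slides in both tissues, called 3323 features. The contrasts within slides of STAT4-/- with WT and of HDC-/- with STAT6-/- called 0 and 0 (7428 and 1557 at an unadjusted p under 0.05). Among features above background on all 16 arrays the 3 contrasts called 0, 0 and 0 by limma, with 1317, 3395 and 867 at an unadjusted p under 0.05. Genotype group and slide cannot be told apart for the first of these contrasts. The 5 genes of smallest p, Slc44a5, Mir100hg, Nkx6-3, Dlx4 and Olfr769, were each below background on at least 3 arrays of 1 tissue.

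Pairs can be set side by side by list. The WT pairs, control and HFD, showed differences of 2.85 and 2.95 for class II, 2.80 and 3.04 for conventional dendritic cells, 3.75 and 4.18 for natural killer cells, and -2.42 and -1.91 for cell division. For natural killer genes the other pairs were lower, at -0.11 (STAT4-/- HFD) to 2.84 (HDC-/- HFD), with STAT4-/- control at 1.37. The STAT4-/- HFD pair had the smallest class II difference (1.05) and the only positive one for cell division (0.19), primary granule (0.67) and secondary granule (0.43) genes. The HDC-/- control pair had the most negative difference for primary granule (-4.56), pro-B and pre-B (-4.59), and marrow stroma and bone genes (-2.79).

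**Figure D5:**
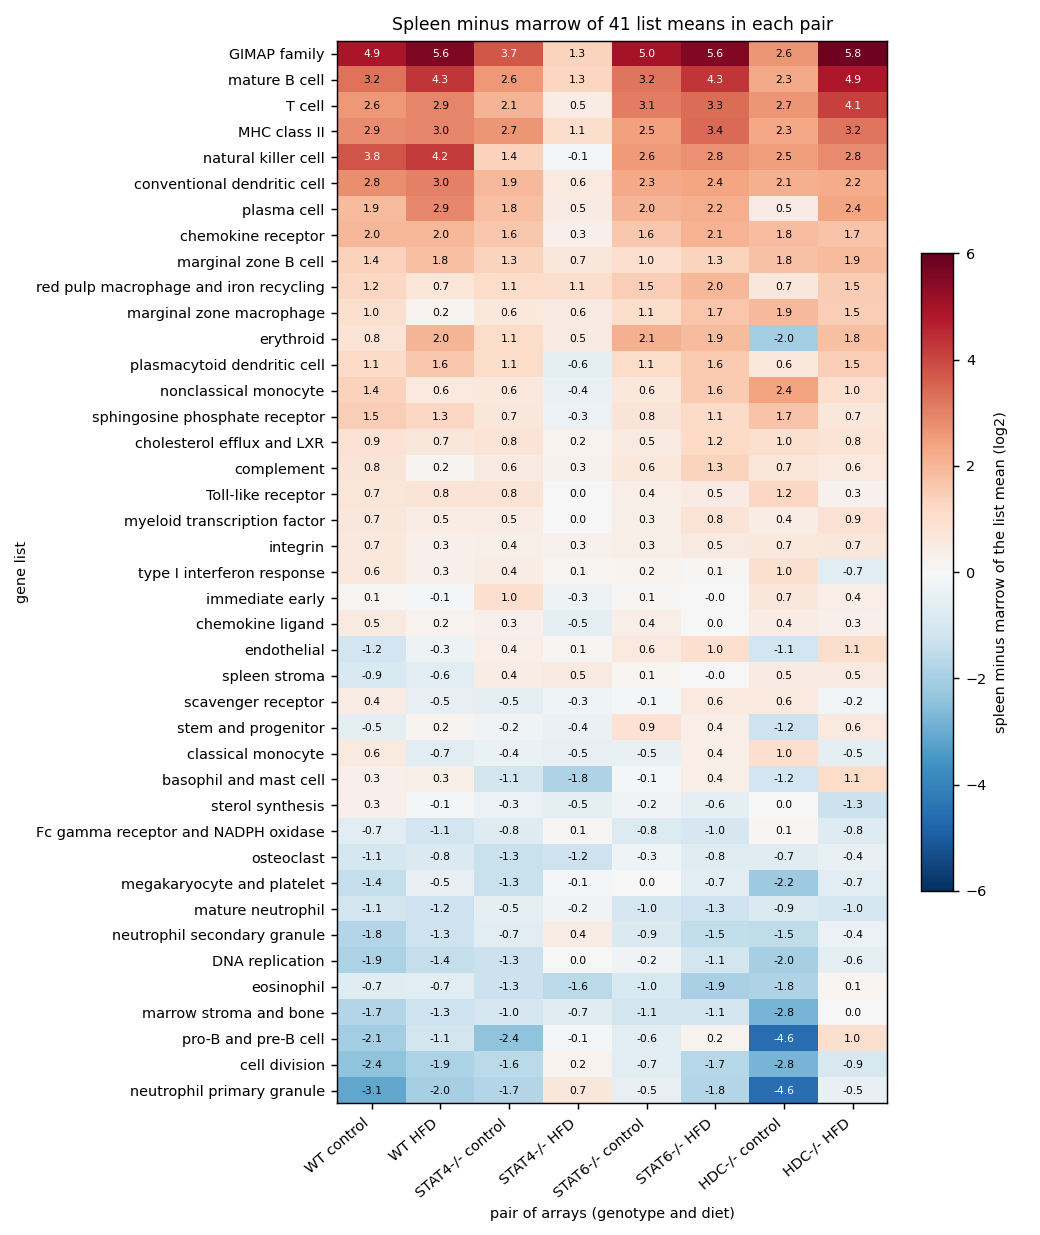
Spleen minus marrow difference of the mean of each of 41 gene lists (rows, ordered by their mean over pairs) in each of the 8 pairs (columns), with the log2 value printed in each cell and red for higher and blue for lower in spleen. The mature B cell, T cell, class II and conventional dendritic cell lists are red in all columns and palest under STAT4-/- HFD, and the primary and secondary granule and cell division lists are blue in the other 7 columns.

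Across the 41 lists, 473 of 491 genes were measured and 291 were called. Few genes could be shown to be alike in both tissues: for 2016 features (7%) the 95% interval of the difference lay within 0.5 log2 of 0, and of the list genes these included Id2 and Eaf2.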

How the data were processed

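RNA of CD11b+ cells was read on 16 Agilent 1-colour arrays. The authors deposited the scanner output of Agilent Feature Extraction 11.0.1.1, per the file headers, with intensity values of each spot after background subtraction. From these, log2 of the deposited processed signal minus the 75th percentile of its array was computed. Control spots and 305 probes marked as outliers on any array were left out. Of 39429 probes 27234 (69.1%) had 1 gene name, and the brightest probe stood for a gene. Features well above background on at least 2 arrays were kept, 28783 in all. The model in limma 3.58.1 (R 4.3.3) held pair and tissue (7 residual degrees of freedom), with Benjamini-Hochberg adjustment over all features and a threshold of 0.05. A second model tested tissue by genotype and by diet (3 residual degrees of freedom). The method was tested on simulated data. The labels do not say whether both tissues of a pair came from the same mice, and p-values measure the spread over 8 pairs of unlike genotype and diet.

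Alternatives were quantile normalization, median scaling, normexp (offset 50), other filters, the mean of a gene's probes and a robust prior. Others were no replicate block, slide as a random block with genotype and diet in place of pair, and subsets of pairs. The number of arrays limits the precision. A fold written as "at least" sets the brighter tissue's mean against the lowest signal well above background, or the dim probe's own signal where higher. Members and gene lists were chosen with earlier results of these data known. Named genes were the 12 with the widest gap on each side, up to 4 called members of each list on its larger side and 3 on the other, and 5 for each interaction. Other genes named, including those not called, were chosen after their values were seen. Promoter windows are those of RefSeq, build GRCm38.p6. Results for some named genes are not reported here.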

Additional observations from a re-analysis of the deposited data

Results flagged for a closer look

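Within a tissue, an array was singled out where its gap to the nearest other array, over the range of the 8 arrays, exceeded Dixon's critical value of 0.526. This held for 23 of 144 groups tested, where chance gives about 1 in 20. Most of them lay on the 2 arrays that correlated more with the other tissue.

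On the spleen STAT4-/- HFD array the mean level was 0.58 for MHC class II, -2.02 for T cell, -1.77 for GIMAP, -1.02 for mature B cell, -0.40 for plasma cell and 1.53 for myeloid transcription factor genes, each the lowest of the spleen arrays. The same array had the lowest Cd74 (4.40) and H2-DMb2 (-0.69) and the highest Stat4 (3.35) of the spleen arrays. Stat4 was also highest of the marrow arrays on marrow STAT4-/- HFD (2.60).

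On the marrow HDC-/- control array secondary granule genes (5.19) and mature neutrophil genes (4.67) were the lowest of the marrow arrays. Complement (-0.05), GIMAP (-0.04), marrow stroma and bone (-2.27), endothelial (-2.57) and type I interferon response genes (2.97) and Cxcl12 (2.42) were the highest. Hspa1a (-5.61) and C6 (-5.57) were lowest there.

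On the spleen HDC-/- control array marginal zone macrophage genes (-1.02) were the highest and immediate early genes (1.76) the lowest of the spleen arrays. C1ra was lowest on the spleen WT HFD array (-2.66).

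The tissue difference depended on genotype by limma for Klrg1 (adjusted p 0.0482), Alox15 and Nectin4 (each 0.0498), and Cma1, Wt1, Slc44a5, Mir100hg, Nkx6-3, Dlx4 and Olfr769 (each 0.0478). The test is of any difference among the 4 genotypes, and the settings that left 0 such calls are given under the dependence on processing.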

How the results depend on the processing

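The 4125 higher and 5282 lower calls stayed within 1.5 times under quantile normalization, median scaling, normexp, other filters, the mean of probes, a robust prior, slide as a random block and without the 2 outlying pairs. With 1 pair left out they were 3106 to 4395 higher and 3547 to 5933 lower. Subsets of 4 pairs moved them: 13 higher and 8 lower in WT and STAT4-/- pairs (2627 and 4625 at an unadjusted p under 0.05), 6466 and 3003 in STAT6-/- and HDC-/- pairs, 1076 and 685 on control diet, and 4 and 2 on HFD. These fits hold fewer samples, and the cause was not tested further.

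Genotype calls (1545) numbered 0 under quantile normalization, 0 under median scaling, 0 under normexp, 0 with features above background on all 16 arrays, and 0 to 0 with 1 pair left out. The cause was not tested. Diet calls were 0 to 0 with 1 pair left out.

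With no replicate block 3803 features were called higher and 4840 lower. Deviations from the tissue mean correlated at -0.31 to 0.41 within a pair, over 0.1 in 5 of 8 pairs. In 4 of 8 an array's own pair was the highest. Y-linked signal was low on both arrays of the STAT4-/- control (-6.81 in spleen, -5.72 in marrow) and HDC-/- control (-8.52 and -7.94) pairs. Pairs were formed by the labels of genotype and diet, and what else the arrays of a pair share was not tested. Of 204 named called genes 187 were called without the block. Those lost included Cd14 (adjusted p 0.244), Ccr3 (0.09), Il5ra (0.241), Isg15 (0.181), Ifi44 (0.219), Alox15 (0.166), Ccl24 (0.0835) and Fdps (0.0543).

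Marrow arrays of STAT6-/- and HDC-/- had the fewest spots above background, which limits dim genes there.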
